A study of Mus musculus with 8 samples.

Results

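Chromatin accessibility was followed at 9 genes that restrain or drive glucose and energy use in pre-B cells: Txnip, Nr3c1, Cnr2, Slc2a1, Slc2a3, Hk2, Hk3, Ldha and Pygl. A peak belonged to a gene if its summit lay in the gene body or within 20 kb of it in mouse build GRCm38 (GENCODE vM21). Overlapping peaks of the 8 deposited lists were merged into regions, which gave 166 regions at these genes of 174718 genome-wide. No region was shared between genes. The numbers were 21 at Txnip, 30 at Nr3c1, 22 at Cnr2, 13 at Slc2a1, 22 at Slc2a3, 22 at Hk2, 8 at Hk3, 16 at Ldha and 12 at Pygl.

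The cells of all samples were from the mouse pre-B line B3 and carried Ikaros-ERt2, which keeps the transcription factor Ikaros (IKZF1) outside the nucleus until 4-hydroxytamoxifen (4-OHT) is added. ATAC-seq, in which the Tn5 transposase cuts open DNA, was done on untreated cells (0 h) and on cells exposed to 4-OHT at 500 nM during 30 min, 1 h or 2 h. Each of these 4 times had 2 replicates, 8 libraries in all. Every group carried the transgene, and no line without it or with 4-OHT alone was analysed here, so 4-OHT itself and nuclear Ikaros cannot be told apart. The labels do not say whether replicates were separate cultures, so p-values measure only the spread between these libraries, which may be technical.

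Pre-B cells live with a limited energy supply, and Ikaros and PAX5 are known to hold down their glucose uptake. Txnip is an arrestin-like protein that removes glucose transporters from the cell surface, Nr3c1 is the glucocorticoid receptor and Cnr2 is a cannabinoid receptor of immune cells, and these have been described as restraints on that supply. Slc2a1 and Slc2a3 (GLUT1 and GLUT3) bring glucose in, Hk2 and Hk3 are hexokinases that trap it as glucose 6-phosphate, Ldha makes lactate at the end of glycolysis, and Pygl, the liver form of glycogen phosphorylase, releases glucose from glycogen.

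Of the 4 regions that passed the test, those at Hk2, Txnip and Slc2a3 are shown by their bases around the summit, read from the GRCm38 reference on the plus strand, and the bases of the one in Nr3c1 are not printed. In these 3, which lost accessibility, capitals mark the Ikaros core words GGAA and GGGA and their reverse complements TTCC and TCCC. Words may overlap, so TTCCC counts as TTCC and TCCC. The window in the Hk2 intron (chr6:82747155-82747354) held 6 words, the window downstream of Txnip (chr3:96564732-96564931) held 8, and the window at the outermost start of Slc2a3 (chr6:122801358-122801557) held 7.
Hk2 intron: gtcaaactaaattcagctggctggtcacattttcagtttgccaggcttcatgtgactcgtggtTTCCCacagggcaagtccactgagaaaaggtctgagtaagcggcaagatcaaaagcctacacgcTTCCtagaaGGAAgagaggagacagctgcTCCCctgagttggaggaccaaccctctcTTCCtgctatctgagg
Txnip downstream: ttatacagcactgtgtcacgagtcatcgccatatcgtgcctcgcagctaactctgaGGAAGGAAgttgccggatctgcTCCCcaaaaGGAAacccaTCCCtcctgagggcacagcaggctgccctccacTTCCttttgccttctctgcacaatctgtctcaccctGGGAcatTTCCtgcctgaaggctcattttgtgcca
Slc2a3 outer start: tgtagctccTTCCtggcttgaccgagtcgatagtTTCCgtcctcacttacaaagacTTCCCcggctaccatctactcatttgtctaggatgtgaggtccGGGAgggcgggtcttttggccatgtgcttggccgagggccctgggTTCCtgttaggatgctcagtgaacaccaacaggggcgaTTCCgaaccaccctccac

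Both promoters shown next were not called at any time, and their capitals mark other words than those in the windows above. Their Ikaros core words, 3 in the Txnip promoter and 4 in the Ldha promoter, are left in lower case. In the Txnip promoter (chr3:96557728-96557927), which lies before the start of Txnip and over an exon of the antisense RNA gene Gm15441, capitals mark 13 bases that match the glucocorticoid response element, an inverted repeat searched as GNACA, 3 free bases and TGTNC, which reads the same on both strands. The Ldha promoter (chr7:46845699-46845838) ends next to a start site that lies within the annotated gene, past its outermost start. In it, capitals mark the E-box CACGTG, a palindrome read by MYC and the glucose sensor MondoA. The Ldha window was added after its word was seen.
Txnip promoter: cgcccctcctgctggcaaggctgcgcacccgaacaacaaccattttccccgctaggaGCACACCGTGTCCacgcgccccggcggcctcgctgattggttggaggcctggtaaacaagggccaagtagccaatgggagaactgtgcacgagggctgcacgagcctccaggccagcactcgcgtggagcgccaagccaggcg
Ldha promoter: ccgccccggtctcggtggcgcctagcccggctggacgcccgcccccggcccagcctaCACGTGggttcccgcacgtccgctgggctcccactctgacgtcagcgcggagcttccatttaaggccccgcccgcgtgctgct

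The 8 lists held 85903 to 103897 peaks, with a median of 11 to 14 fragments at a summit. The number of fragments was recovered from the deposited fold and p-value, and the most frequent local background was 0.26 to 0.405 fragments per base. The 0 h replicate 2 list was the shortest and had the lowest background. Of 10 pre-B marker genes, 7 had a promoter peak in all 8 lists, including Cd79a, Cd79b, Ebf1, Pax5 and Blnk. Of 12 marker genes of other lineages, 10 had none in any list, and Col1a1 and Pecam1 had one in all 8.

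Of the 166 regions, 56 had a peak in all 8 lists and could be tested, and 42 appeared in 1 list only. By place, 23 were promoters of the genes themselves (within 1 kb of a start site in the basic annotation) and 11 were promoters of neighbours such as Fuca1, Nanog and Gm5112. The strength of a region is given here as its percentile, the rank of its fold over background among all peaks of that library's list, where 100 is the strongest. The test used another scale, the normal score of the rank among the 47875 regions present in all 8 lists, with limma and Benjamini-Hochberg adjustment over all of them at a threshold of 0.01.

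Few regions of these genes changed, and each that passed the test was lower after 4-OHT. At 30 min 0 of 56 were lower and 0 were higher, against 0.0% lower and 0.0% higher among all tested regions. At 30 min an unadjusted p under 0.05 was met by 7 lower and 4 higher regions (background 9.94% and 9.51%). At 1 h 3 regions (5.36%) were lower, in Hk2, downstream of Txnip and at Slc2a3, against a background of 2.51%. At 2 h 3 regions (5.36%) were lower, in Hk2, downstream of Txnip and in Nr3c1, against a background of 4.71%. No region was higher by limma at 1 h (background 1.1%) or at 2 h (background 2.28%), although 7 and 5 had an unadjusted p under 0.05 in that direction (background 14.9% and 17.1%). The share lower at 2 h was near that of the genome. At an adjusted p under 0.05, the Hk2 intron region alone was lower at 30 min (background 1.49%) and none was higher (background 0.702%). At 1 h that threshold gave 5 lower (background 8.18%) and 2 higher (background 5.74%), and at 2 h 5 lower (background 11.1%) and 3 higher (background 8.34%), the latter in Cnr2, upstream of Ldha and in Pygl. The median score difference of the 56 was 0.008 at 30 min, -0.14 at 1 h and -0.061 at 2 h, beside 0.027, 0.053 and 0.062 over all tested regions.

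These counts rested on both libraries of a group. Without 0 h replicate 1, 0 h replicate 2, 1 h replicate 1 or 1 h replicate 2, 0 regions were called lower at 1 h, as were 0 of all 47875 in either direction. Without 0 h replicate 2, 0 were called lower at 2 h, and without 0 h replicate 1, 2 h replicate 1 or 2 h replicate 2 the count was 1. On the scale of log2 fragments over the library's background, the regions passing at 2 h were 3 lower and 5 higher. Over all 47875 regions they were 3424 and 3772, with a median shift of 0.218. Once each library was centred on its median, 4 were lower and 3 higher, beside 4489 and 2602 over all regions. Over all tested regions the share of calls at 2 h that were lower was 67.4% by score, 47.6% by fragments and 63.3% by centred fragments.

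**Figure D1:**
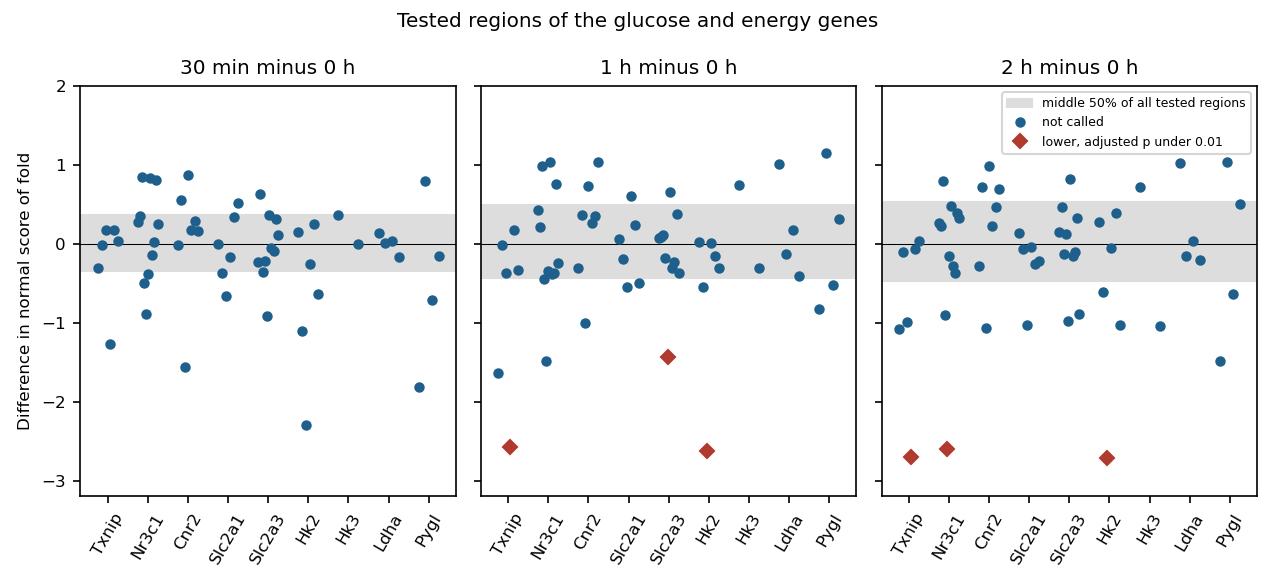
Difference in the normal score of fold between each 4-OHT time and 0 h (vertical axis) for the 56 tested regions, grouped by gene. Diamonds mark regions with an adjusted p under 0.01 and the grey band holds the middle 50% of all 47875 tested regions. The lowest points at 2 h are 1 region each in Hk2, near Txnip and in Nr3c1, between -2.71 and -2.60.

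At Txnip, a region just downstream of the gene passed the test and the promoter did not. The promoter region (chr3:96557690-96558016), 129 bp before the start site, had 70 and 54 fragments before treatment and then 60 and 61 (30 min), 69 and 53 (1 h) and 61 and 57 (2 h). Its percentile was 91.4 and 92.7 untreated and 92.3 and 91.6 after 2 h, so all 8 libraries stayed among the strong peaks of their lists. The score difference at 2 h was -0.10 (SE 0.28, adjusted p = 0.836).

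The downstream region (chr3:96564528-96564976) lay 6875 bp past the Txnip start, beyond the end of the gene and in an intron of the antisense RNA gene Gm15441. It held 72 and 61 fragments without 4-OHT, 29 and 26 after 30 min, 16 and 13 after 1 h and 11 and 18 after 2 h. Every 4-OHT library lay below both 0 h libraries, and both 1 h libraries lay below both 30 min libraries. The exact 95% Poisson interval covers counting error only. It was 56.3 to 90.7 fragments in 0 h replicate 1 and 46.7 to 78.4 in 0 h replicate 2. At 2 h it was 5.49 to 19.7 in replicate 1 and 10.7 to 28.4 in replicate 2. In these bulk libraries a loss in every cell and a loss in some cells cannot be told apart. Its percentile was 96.9 ± 0.0827 (SD, n = 2) at 0 h and 42.3 ± 23.0 at 2 h. The score difference was -1.27 at 30 min (limma adjusted p = 0.0853), -2.57 at 1 h (adjusted p = 0.00294) and -2.70 at 2 h (SE 0.35, adjusted p = 0.00161). In fragments over background this was 4.84-fold lower at 2 h. Without 0 h replicate 1, 0 h replicate 2 or 2 h replicate 1 the adjusted p at 2 h was 0.0115, 0.0129 and 0.0102.

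No other tested Txnip region passed. A region 6541 bp upstream (chr3:96551339-96551503) had 18 and 15 fragments untreated, 9 and 11 after 1 h and 13 and 11 after 2 h, with an adjusted p of 0.0148 at 1 h and 0.0531 at 2 h. A weak region 12234 bp upstream (chr3:96545707-96545803) was in neither 0 h list and in all 6 lists with 4-OHT, with 7 and 5 fragments after 30 min, 12 and 15 after 1 h and 13 and 18 after 2 h. Absent from 2 lists, it was not in the main test. It passed as higher at 2 h (score difference 1.36) when regions in at least 2 lists were tested with absent lists ranked lowest. Both 0 h values were then set by absence and had no measured spread, so this restates the absence and no p-value is given. The promoter of the neighbour Gm16253 (chr3:96576713-96576993) kept a percentile of 81.6 to 91.7 over all libraries.

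**Figure D2:**
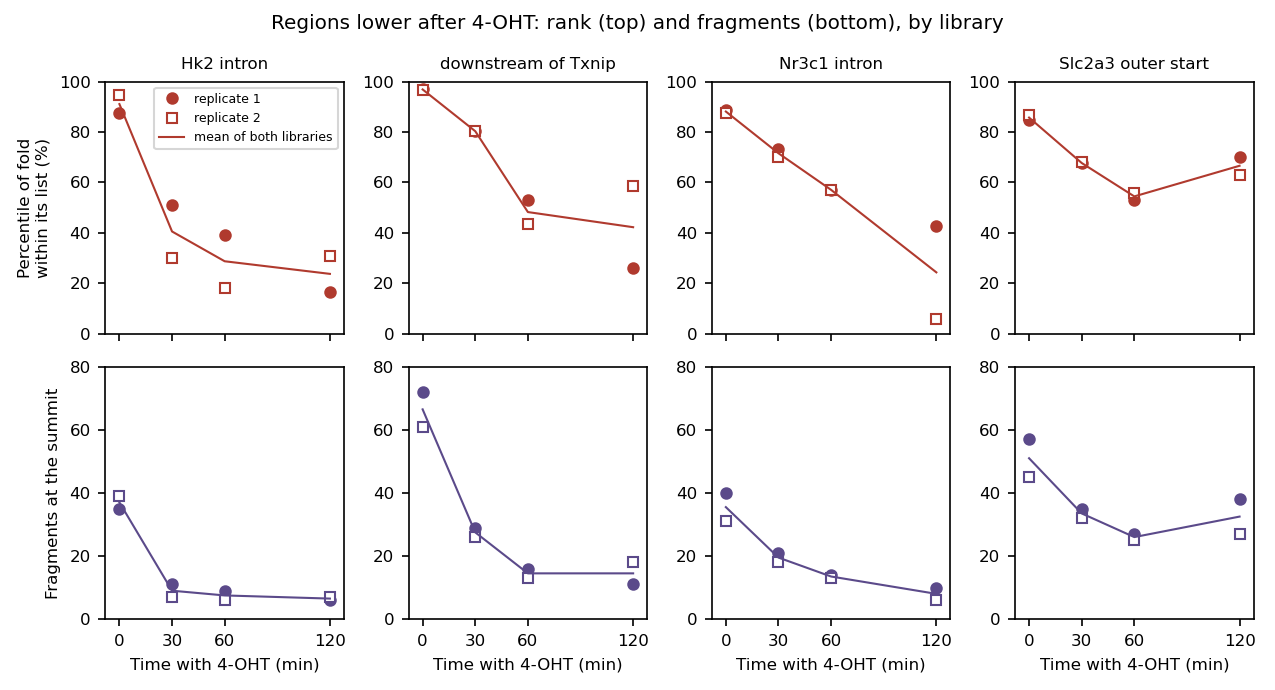
The 4 regions that passed the test at 1 h or 2 h, by time with 4-OHT in minutes (horizontal axis). The upper row gives the percentile of fold within the library's list and the lower row the fragments at the summit, with 1 symbol per replicate and a line through the mean. The Hk2, Txnip and Nr3c1 regions end at 6 to 18 fragments at 2 h from 31 to 72 at 0 h, and the Slc2a3 region is lowest at 1 h.

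At Hk2, the hexokinase bound to mitochondria that many growing cells use, a region in an intron passed the test and the promoter did not. The Hk2 promoter (chr6:82774394-82774772) was among the strongest regions, at a percentile of 95.2 and 93.0 untreated and 97.6 and 97.6 after 2 h, with 83 and 51 and then 78 and 66 fragments. Its score difference at 2 h was 0.39 (SE 0.25, adjusted p = 0.296). The intron region (chr6:82747125-82747487), 27199 bp into the gene, held 35 and 39 fragments before treatment and then 11 and 7 (30 min), 9 and 6 (1 h) and 6 and 7 (2 h). No 4-OHT library reached the lower of the 0 h libraries, and the 30 min libraries were already close to those at 2 h.

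The percentile of the Hk2 intron region was 91.0 ± 5.16 (SD, n = 2) untreated and 40.5 ± 14.8, 28.8 ± 14.8 and 23.7 ± 10.1 after 30 min, 1 h and 2 h. The score difference was -2.29 at 30 min, which missed the threshold (limma adjusted p = 0.0193), -2.63 at 1 h (adjusted p = 0.00287) and -2.71 at 2 h (SE 0.34, adjusted p = 0.00144). At 30 min it passed on the log2 fragment scale, 4.65-fold lower (adjusted p = 0.00197), and it was 5.86-fold lower at 2 h. Without 0 h replicate 2, 2 h replicate 1 or 2 h replicate 2 the adjusted p at 2 h was 0.0129, 0.0133 and 0.0102.

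The promoter of Gm17034, a gene within Hk2, (chr6:82763935-82764478) had 18 and 19 fragments untreated, 6 and 6 after 30 min, 8 and 10 after 1 h, and at 2 h a peak in 1 list only, with 8. A region 153 bp from a second Hk2 start site (chr6:82773451-82773672) had 26 and 22 fragments at 0 h and 11 fragments with 1 list lacking it at 2 h. Neither was in the main test, since each region lacked a peak in 1 list. Neither passed when regions in at least 2 lists were tested with absent lists ranked lowest. An Hk2 intron region (chr6:82772043-82772230) was in neither 1 h list. It passed as lower at 1 h in that setting (score difference -1.07). Both 1 h values were then set by absence and had no measured spread, so this restates the absence and no p-value is given.

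Hk3, a hexokinase of myeloid cells, had 8 regions, no peak within 1 kb of its start and 2 tested regions. The nearest tested upstream region (chr13:55022692-55022971), 1444 bp before the start, had 21 and 16 fragments untreated and 17 and 8 after 2 h, and the 2 h libraries disagreed (percentile 69.1 and 28.0, adjusted p = 0.0836). A nearer one, 1085 bp before the start (chr13:55022437-55022600), was in 1 list with 6 fragments. An intron region (chr13:55013836-55014001) had a percentile of 80.8 ± 5.28 at 0 h and 94.1 ± 0.536 at 2 h (SD, n = 2), with a score difference of 0.72 and an adjusted p of 0.112.

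**Figure D3:**
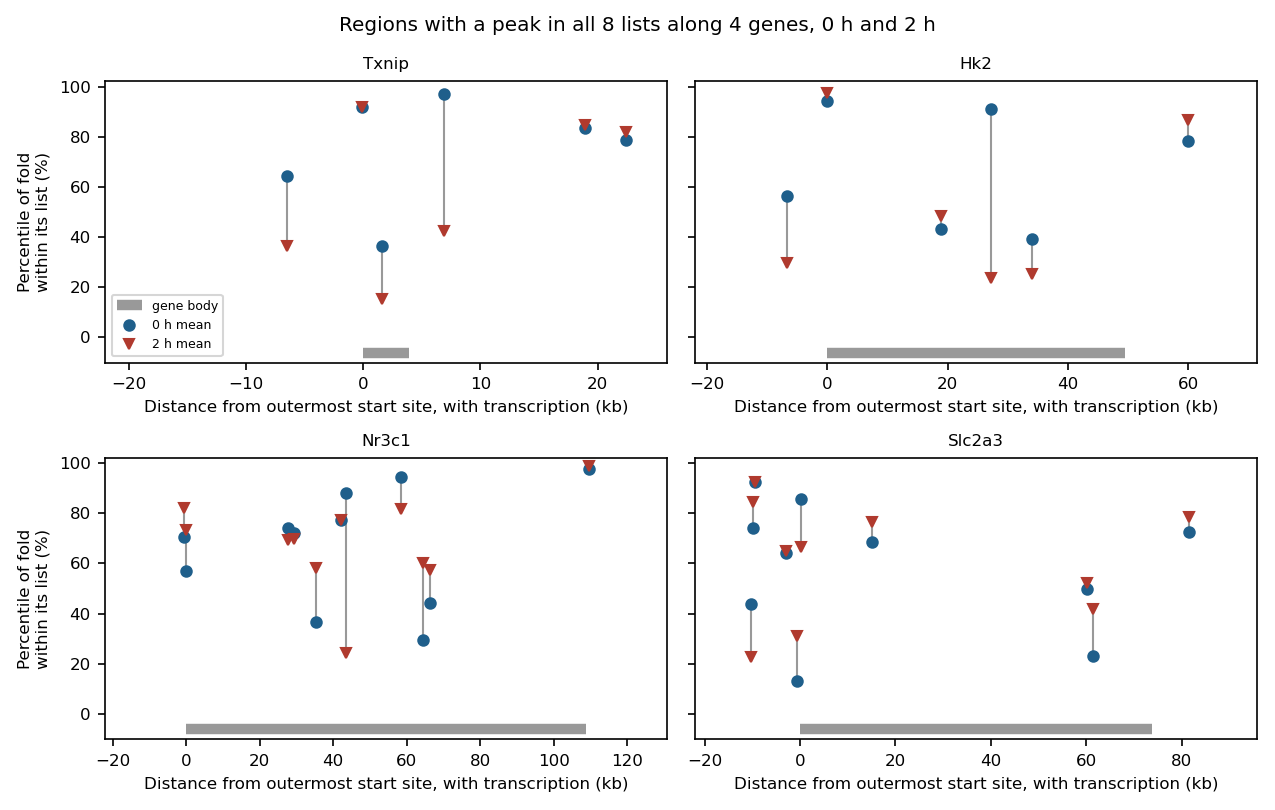
Tested regions along Txnip, Hk2, Nr3c1 and Slc2a3, by distance from the outermost annotated start site in the direction of transcription (kb) and by mean percentile at 0 h (circles) and 2 h (triangles). The grey bar is the gene body. One long drop is seen in each of Txnip, Hk2 and Nr3c1, away from the promoter, and the Txnip and Hk2 promoters are above 90 at both times.

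Nr3c1 had the most regions, 30, of which 11 were tested. Its region with the largest difference lay in an intron (chr18:39475883-39476208), 11216 bp from the nearest start site. It held 40 and 31 fragments without 4-OHT, 21 and 18 after 30 min, 14 and 13 after 1 h and 10 and 6 after 2 h. Libraries of different times did not overlap, in the order 0 h, 30 min, 1 h and 2 h. The percentile was 88.1 ± 0.704 (SD, n = 2) before 4-OHT and 71.5 ± 2.33, 57.1 ± 0.0991 and 24.3 ± 25.9 after 30 min, 1 h and 2 h. The score difference was -0.89 at 30 min (limma adjusted p = 0.227), -1.49 at 1 h (adjusted p = 0.0281) and -2.60 at 2 h (SE 0.37, adjusted p = 0.00226), and the fragments over background were 4.67-fold lower at 2 h. Without 0 h replicate 1, 0 h replicate 2 or 2 h replicate 2 the adjusted p at 2 h was 0.0151, 0.0169 and 0.0132.

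The starts of Nr3c1 did not show this. The promoter region with the highest 0 h percentile (chr18:39491496-39491804) had 49 and 26 fragments untreated and 46 and 35 after 2 h (score difference -0.37, adjusted p = 0.338). The region over the outermost start site (chr18:39519173-39519494) had 23 and 12 fragments before treatment and then 43 and 31 (30 min), 40 and 35 (1 h) and 34 and 32 (2 h). Each 4-OHT library there had more fragments than both 0 h libraries, yet the score did not pass at any time (adjusted p = 0.0942 at 1 h and 0.343 at 2 h). On the log2 fragment scale it passed at 1 h (1.08, adjusted p = 0.00631) and at 2 h (0.95, adjusted p = 0.00913), but not once libraries were centred. The strongest region, past the 3′ end of the gene (chr18:39409650-39410030), stayed at a percentile of 97.7 to 99.6.

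Cnr2 had 7 tested regions and none called. Its promoter region (chr4:135895303-135895498) was weak and varied between replicates, with 25 and 21 fragments without 4-OHT, 16 and 12 after 30 min, 21 and 15 after 1 h and 14 and 20 after 2 h. All 4-OHT libraries had a percentile below both 0 h libraries (55.7 and 62.8), and the adjusted p was 0.0511 at 30 min, 0.086 at 1 h and 0.0572 at 2 h. An intron region 3214 bp into the gene (chr4:135898485-135898676) had the opposite direction, with 22 and 15 fragments before treatment and then 40 and 34 (30 min), 39 and 30 (1 h) and 39 and 40 (2 h). Its percentile was 46.9 ± 2.59 at 0 h and 79.1 ± 3.02 at 2 h (SD, n = 2), with a score difference of 0.98 and an adjusted p of 0.0232. It passed at 2 h on the log2 fragment scale (1.08, adjusted p = 0.00404), also once libraries were centred (0.94, limma adjusted p = 0.00703). The strongest Cnr2 region, 5306 bp upstream (chr4:135889986-135890164), held 36 to 72 fragments and stayed at a percentile of 96.8 to 99.9.

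Of the glucose transporters, the Slc2a1 promoter was tested and not called, and the Slc2a3 promoter of the basic annotation could not be tested. The Slc2a1 promoter (chr4:119108498-119108932) had 47 and 38 fragments without 4-OHT, 45 and 40 after 30 min, 61 and 45 after 1 h and 62 and 54 after 2 h. Its score difference at 2 h was -0.06 (SE 0.27, adjusted p = 0.895). An intron region of Slc2a1 (chr4:119118637-119119107) had 45 and 34 fragments untreated and 19 and 23 after 2 h, and both 2 h libraries were below both 0 h libraries. Its adjusted p at 2 h was 0.0268, and 0.00565 on the centred log2 fragment scale. A region past the end of Slc2a1, starting at chr4:119150644, was lower when regions in at least 2 lists were tested with absent lists ranked lowest. Its score difference there was -1.16 at 1 h and -1.18 at 2 h. That setting reads an absent peak as a low value without a measured spread, so no p-value is given.

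The Slc2a3 promoter at the start used by the basic annotation (chr6:122742448-122742852) had a peak in 7 lists, with 17 and 16 fragments at 0 h and 13 in 1 list at 2 h, so it was not tested. The outermost start of Slc2a3, 182 bp from the summit of a second region (chr6:122801237-122801699), belongs to a transcript outside the basic set. That region had 57 and 45 fragments before treatment and then 35 and 32 (30 min), 27 and 25 (1 h) and 38 and 27 (2 h). It was lowest at 1 h, where the score difference was -1.44 (SE 0.26, limma adjusted p = 0.00814), and at 2 h the difference was -0.98 (adjusted p = 0.0272). The call at 1 h was narrow: it was lost without any 1 of the 8 libraries, with the replicate block, with ranks among all peaks, with regions in at least 2 lists, with the 4 samples alone and on the log2 fragment scale (2.07-fold lower, adjusted p = 0.0104). It was kept with ranks by −log10 p, with centred fragments and with the trend and robust prior. The percentile was 85.7 ± 1.38 at 0 h, 54.4 ± 1.89 at 1 h and 66.6 ± 5.10 at 2 h (SD, n = 2). Whether 1 h and 2 h differed was not tested. Further Slc2a3 regions lay at the promoter of Gm5112, where the strongest (chr6:122810711-122811249) had a percentile of 87.7 to 94.5.

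At Ldha the promoter and an upstream region were open at every time. The promoter (chr7:46845621-46845931) lay at a start site within the annotated gene, 4324 bp past its outermost start. It had 36 and 31 fragments without 4-OHT, 44 and 36 after 30 min, 52 and 40 after 1 h and 39 and 40 after 2 h. Its score difference at 2 h was 0.04 (SE 0.29, adjusted p = 0.94). A region 8032 bp upstream of the outermost Ldha start lay at the promoter of Gm45308 (chr7:46833316-46833567). It had 21 and 15 fragments before treatment and then 22 and 24 (30 min), 44 and 31 (1 h) and 41 and 41 (2 h). All libraries at 1 h and 2 h were above those at 0 h and 30 min. The score difference was 1.01 at 1 h (adjusted p = 0.0443) and 1.03 at 2 h (adjusted p = 0.033). On the log2 fragment scale it passed at 2 h, 2.25-fold higher (adjusted p = 0.00493). Once libraries were centred it still passed at 2 h (1.02, limma adjusted p = 0.0075). A region between them (chr7:46838220-46838376) went from 31 and 21 fragments at 0 h to 16 and 12 at 1 h and was in 1 of the 2 h lists, with 12.

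Pygl had 4 tested regions and none called. Its promoter region (chr12:70232266-70232515) had 21 and 26 fragments untreated and 15 and 20 after 2 h (score difference -0.64, adjusted p = 0.254). An intron region (chr12:70219158-70219509) had 9 and 11 fragments without 4-OHT, 19 and 19 after 30 min, 29 and 22 after 1 h and 31 and 21 after 2 h. Its adjusted p was 0.04 at 1 h and 0.0464 at 2 h, and it passed on the log2 fragment scale at 2 h (1.32, adjusted p = 0.0079). Once libraries were centred it passed narrowly at 2 h (1.18, limma adjusted p = 0.00996). A second intron region (chr12:70214429-70214632) had 18 and 13 fragments at 0 h, and its replicates disagreed at 30 min (11 and 5) and at 2 h (7 and 12). Its score difference at 2 h was -1.48 (SE 0.50, adjusted p = 0.064).

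**Figure D4:**
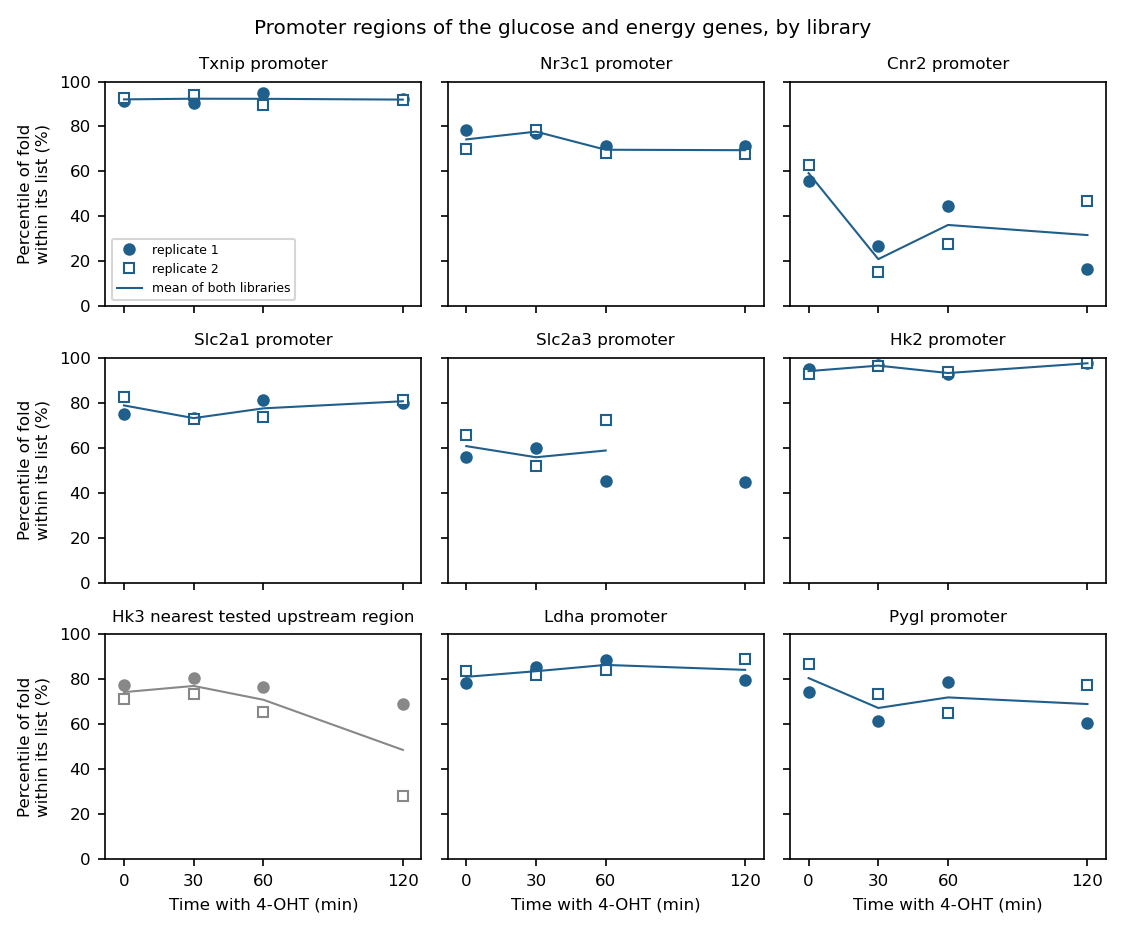
Percentile of fold within the library's list (vertical axis, 0 to 100) by time with 4-OHT in minutes for the promoter region of each gene with the highest value at 0 h, and for Hk3 the nearest tested upstream region. Symbols are replicates and the line is their mean, drawn where both libraries had a peak. The Txnip and Hk2 promoters lie between 89.6 and 97.6 in all libraries, those of the Cnr2 promoter lie between 15.2 and 62.8, and the Hk3 replicates lie far apart at 2 h (69.1 and 28.0).

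In order of mean percentile at 0 h, the promoters were Hk2 (94.1 ± 1.58), Txnip (92.0 ± 0.892), Ldha (81.1 ± 3.81), Pygl (80.5 ± 8.80), Slc2a1 (78.9 ± 5.47), Nr3c1 (74.3 ± 5.99), Slc2a3 (60.7 ± 6.99) and Cnr2 (59.2 ± 5.00), each with its SD over 2 replicates. The libraries of Ldha, Pygl, Slc2a1 and Nr3c1 overlapped from each gene to the next, as did those of Slc2a3 and Cnr2, and the values of Hk2 lay just above those of Txnip. Percentiles compare the height of peaks within a list and not their length. The promoters most like that of Txnip over the 8 libraries, by Euclidean distance of scores, were those of Rwdd3, Fkbp8 with Kxd1, Homer1, Arrb1 and Acot8 with Zswim3, at 0.254 to 0.335 where the median distance was 3.43. For the Hk2 intron region they were Supt3, Herc6, Gabpb1, Unc119 and Cecr2, at 0.989 to 1.21 with a median of 4.45.

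Peaks that were lost or gained at these genes were weak, as were most of those lost or gained over all regions. Of 70 regions in both 0 h lists, 2 were in neither 30 min list (background 10.9%), 4 in neither 1 h list (background 14.6%) and 2 in neither 2 h list (2.86%, background 16.6%). The 2 lost at 2 h were a promoter region of Nr3c1 with 14 and 7 fragments and a region past Slc2a1 with 7 and 6. Gained regions numbered 6 of 82 at 30 min (background 10.3%), 9 of 83 at 1 h (background 17.0%) and 15 of 82 at 2 h (18.3%, background 20.5%). None of the lost or gained regions had over 20 fragments in both libraries that held it. At these genes, 32 regions that strong could be lost at each time, and 33, 31 and 27 gained at 30 min, 1 h and 2 h. Genome-wide, 809 of 11581 lost and 501 of 16223 gained regions at 2 h were that strong. Among all regions that strong, 1.4%, 2.99% and 3.86% were lost and 0.439%, 1.34% and 2.05% gained at 30 min, 1 h and 2 h. Of the gained regions at 2 h, 4 were at Nr3c1 and 3 at Txnip. The regions present per library ranged from 79 in 0 h replicate 2 to 108 in 2 h replicate 1.

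By percentile alone, both 2 h libraries were below both 0 h libraries for 13 of the 56 regions (background 24.3%) and above them for 18 (background 40.6%). The lists with 4-OHT held up to 103897 peaks and the 0 h lists 93936 and 85903, and the part of list length in these shares was not tested.

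The words printed above were counted in the 200 bp around each summit. The 56 regions held 2.23 ± 0.958 Ikaros core words per 100 bp (SD over regions), beside 2.2 ± 1.18 over all tested regions. The 3 regions lower at 2 h held 6 to 8 words in 200 bp, and 29.0%, 10.1% and 17.9% of all tested regions held as many or more as the Hk2, Txnip and Nr3c1 regions. The 53 tested regions of these genes not called at 2 h held 2 to 8 words, with a median of 4. The Txnip promoter held 3 words, a number met or passed by 78.2%. The Ldha promoter held 4, met or passed by 61.5%, and the Hk2 promoter held 2, met or passed by 91.1%. At least 1 core word was in 97.9% of all tested regions. The E-box was in 5 of the 56 regions (8.93%) and in 5.04% of all, and the glucocorticoid receptor word was in 2 of the 56 and in 0.345% of all. These are matches of letters and not binding sites.

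Other genes of glucose and energy use gave few calls, in both directions. Of 54 genes in 7 lists, with 246 tested regions, 4 regions were lower and 3 higher at 1 h (background 2.51% and 1.1%), and 6 were lower (2.44%, background 4.71%) and 7 higher (2.85%, background 2.28%) at 2 h. These shares were near or below those of the genome. By list the tested and called regions at 2 h were 69 with 2 lower and 3 higher for glycolysis enzymes, and 26 with 2 lower and 1 higher for sugar and lactate transporters. Glycogen metabolism had 31 with 1 lower, the pentose phosphate pathway 18 with 1 higher, energy and glucose sensing 46 with 1 lower and 1 higher, and glucocorticoid receptor partners and targets 45 with 1 higher. The control of pyruvate dehydrogenase had 11 with no call. The median score difference of the 246 at 2 h was 0.014, beside 0.062 over all tested regions. The 13 calls fell to 2, 1, 3 and 0 without 0 h replicate 1, 0 h replicate 2, 2 h replicate 1 and 2 h replicate 2.

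Among them, a region at a Gapdh start (chr6:125166482-125166678) had 37 and 25 fragments untreated and 15 and 18 after 2 h (adjusted p = 0.00968). A promoter of Slc2a9, a urate and sugar transporter, had 51 and 26 fragments untreated and 9 and 6 after 2 h (adjusted p = 0.00188). An intron region of Fkbp5, which encodes a co-chaperone of the glucocorticoid receptor, rose from 13 and 11 fragments at 0 h to 36 and 42 at 2 h (adjusted p = 0.00677). An intron region of Mlxip, which encodes MondoA, rose from 4 and 3 fragments to 10 and 8 (adjusted p = 0.00418). Several calls counted for a gene lay at a neighbour, such as the Unc119 promoter near Aldoc, the Usp5 promoter near Tpi1, the Cenps promoter near Pgd and the Atp5d promoter near Stk11.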

How the data were processed

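ATAC-seq peak lists of 8 libraries were analysed (4 times, 2 replicates each, grouped by the labels). The authors demultiplexed with bcl2fastq 2.20.0, aligned with BWA 0.7.17 through nf-core/atacseq, shifted read ends for the Tn5 offset with deepTools 2.3.5, kept nucleosome-free fragments and called peaks with MACS2 2.1.2 on each library, without a control. The methods text names a human genome, but 0 peaks lay outside the GRCm38 chromosomes. The deposited files hold a fold of the summit over local background (a ratio), a −log10 p-value, a −log10 q-value, an integer score and a summit offset, none scaled between libraries. Since the lists were not cut to a common length and only peaks past the caller's threshold are listed, weak regions and absences depend on depth.

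The genes, the lists and the tests were chosen with earlier results of these data known. Fragments at a summit were recovered from the fold and p-value as whole numbers (99.997% of peaks within 0.001 of the deposited −log10 p). Regions present in all 8 lists were tested with limma 3.58.1 in R 4.3.3 on normal scores of fold ranks, all 4 times in 1 model with 4 residual degrees of freedom, and an adjusted p under 0.01 was a call. With 2 against 2 libraries an exact permutation test cannot go below p = 0.333, so none was run. The recovery and the fit were tested on simulated data. Regions were named if they were a gene's promoter region with the highest mean percentile at 0 h, if they were called at any time, if they were lost or gained with over 20 fragments, or if they had the largest score difference of a gene at 2 h. Further regions were named after their values were seen. Bases came from the GRCm38 reference. Alternatives changed the strength measure, the ranked set, the filter, the threshold, the variance model, the samples and the window (5 kb or 50 kb).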

Additional observations from a re-analysis of the deposited data

How the results depend on the processing

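Hk2 intron, Txnip downstream and Nr3c1 intron kept their direction at 2 h under all alternatives, with score differences of -3.01 to -2.41, -3.25 to -2.15 and -3.23 to -1.96 when 1 library was left out. A group left with 1 library was assumed to vary like the others. Without 1 library, regions called lower numbered 0 to 2 at 1 h and 0 to 3 at 2 h, and those called higher 0. The other pathway regions called at 2 h numbered 0 to 10. Lost regions numbered 2 to 15, 6 to 16 and 4 to 17 at 30 min, 1 h and 2 h, and gained regions 7 to 22, 11 to 22 and 15 to 32, where 1 list in place of 2 had to lack or hold the peak.

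At 30 min 1 region was lower by fragments, by centred fragments, at an adjusted p under 0.05 and with limma's trend and robust prior. Over all 47875 regions, 608, 622, 712 and 209 were lower in these settings. An adjusted p under 0.05 gave 5 lower and 2 higher at 1 h, and 5 lower and 3 higher at 2 h, with 35 pathway regions. Fragments gave 2 higher at 1 h and 5 higher at 2 h (2038 and 3772 over all regions), with 31 pathway regions. Centred fragments gave 3 higher at 2 h (2602 over all regions), with 29 pathway regions. Regions in at least 2 lists gave 4 lower at 1 h, and 4 lower and 1 higher at 2 h, with 39 pathway regions. Over all 126504 such regions, 5482 were lower at 1 h, and 7933 were lower and 2990 higher at 2 h. Absent lists share the lowest rank there, so calls at regions missing from both lists of a time restate absence. The trend and robust prior gave 20 pathway regions, the 4 samples of the contrast alone 8, and windows of 5 kb and 50 kb gave 5 and 23. Over all regions, the calls at 2 h (2256 lower and 1092 higher) became 3272 and 2256 with the trend and robust prior, 3424 and 3772 by fragments, 5300 and 3993 at 0.05, 1305 and 1199 when ranked among all peaks, and 1621 and 635 with the 4 samples alone. At 1 h the 1204 and 526 became 489 and 472, and 449 and 95, in the last pair of settings.

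Among lost regions, requiring over 20 fragments gave 0 at each time. At 30 min a 5 kb window gave 1 and a 50 kb window 4. At 2 h a −log10 q of at least 5 gave 4, equal list lengths 6, a 5 kb window 1 and a 50 kb window 4. Among gained regions, over 20 fragments gave 0 at each time. At 30 min a −log10 q of at least 5 gave 2, equal lengths 3, a 5 kb window 0 and a 50 kb window 12. At 1 h the windows gave 3 and 14. At 2 h a −log10 q of at least 5 gave 6, equal lengths 4, a 5 kb window 8 and a 50 kb window 25. The cause of these differences was not tested. With the replicate block, 2 regions were lower at 1 h and 3 at 2 h, the Slc2a3 region was no longer called at 1 h, and all-region calls at 2 h were 1905 lower and 860 higher. The block stands only for a shared number, as deviations of same-numbered libraries correlated at 0.0172 to 0.0403 and the labels name no shared batch. Depth limits the weak regions, and a region missing from a list may still be open.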
